A study of Danio rerio with 4 samples.

Results

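The 7 genes described here are products and regulators of red blood cells, taken by gene symbol from the platform annotation: the embryonic globins hbae3, hbbe2 and hbbe3, the anion exchanger slc4a1a, the carbonic anhydrase cahz, the haem synthesis enzyme alas2 and the transcription factor gata1a. They are 7 of 8793 named genes on the Affymetrix zebrafish genome array and are read by 8 of its 15502 probe sets, since hbae3 has 2. They were selected on these same intensities, for the low signal of most of them in the mutant arrays relative to the wild-type array, so that difference is given as a description, with no test. RNA labelled as embryonic brain was measured in 3 arrays of foggy mutants and 1 array of wild type. The wild-type label gives 36 h, and the mutant labels give 36 without a unit, read here as hours. The mutated gene is supt5h, whose protein Spt5 travels with RNA polymerase II and acts in both its pausing and its elongation. The labels give no allele, strain, age beyond this time or number of embryos per sample, and do not say how the brains were freed of blood. They number the foggy samples without saying whether they were separate clutches, so the p-values below rest on a spread that may be technical only.

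Red cells of the early zebrafish embryo arise in the intermediate cell mass and enter the circulation, so RNA of the head includes that of the blood in its vessels. Gata1 turns on the red cell programme. Alas2 makes the first committed compound of haem synthesis in red cells, and haem is inserted into alpha and beta globin chains to form haemoglobin. The band 3 anion exchanger (slc4a1a) and a cytosolic carbonic anhydrase (cahz) let the cell carry carbon dioxide as bicarbonate. Zebrafish lacking gata1a (vlad tepes), alas2 (sauternes) or slc4a1a (retsina) are anaemic. The embryonic globin genes lie in separate clusters: in assembly GRCz12tu hbae3 stands beside the other embryonic alpha and beta globin genes, while hbbe2 and hbbe3 are neighbours of each other on another chromosome, between hbae4 and hbae5.

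Genes of the labelled tissue were compared between the groups first, which cannot show that the samples held brain alone. Heart and muscle genes also gave signal, with myl7 at 307 and pvalb1 at 744 in the wild-type array. The median log2 difference of 21 tested genes of neurons, neural progenitors and brain regions was 0.00. Of these, 2 were lower in foggy (9.52%, against 3.14% of all tested probe sets), 3 were higher (against 2.36%) and 16 did not pass limma's test. Without foggy array 1 these counts were 4 and 6, where 878 of all 10851 tested probe sets were lower and 1186 higher. Without foggy array 2 or 3 these counts were 1 and 2. They were 0 and 1 when dim probe sets were kept (4 and 6 at an unadjusted p under 0.05) and 0 and 0 by limma without the variance trend (3 and 4 unadjusted). The calls furthest from 0 were gap43 (-0.39) and fabp7a (-0.23) among the lower genes and dlx2a (+0.50) and elavl4 (+0.36) among the higher ones, and each was lost when the wild-type array was given 2 times the SD of the foggy arrays. The summed signal of the brain list was 20200, 20600 and 20229 in the foggy arrays and 21000 in the wild-type array. The deposited values had the same trimmed mean in each array, and median signals were 65.3 to 66.0 in foggy and 65.4 in wild type. The supt5h transcript read 258, 245 and 254 in foggy and 210 in wild type, which does not check the labels, because a mutation need not change the level of its transcript.

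The embryonic globins were all lower in foggy. The probe set of hbae3 with the higher signal read 1310, 1198 and 1162 in the foggy arrays, against 5131 in the wild-type array. The 3 foggy values were close to one another, at 25.5%, 23.3% and 22.6% of the wild-type value. The other hbae3 probe set, whose suffix marks it as shared by transcripts of similar sequence, read 697, 742 and 711 in foggy, against 3948 in wild type. It gave the lowest share of any of the 8 probe sets, 17.7% to 18.8% of wild type, and its range did not overlap that of the first.

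The beta globins hbbe3 and hbbe2 followed. The hbbe3 probe set read 91.3, 91.2 and 90.8 in foggy, against 352 in wild type. The foggy arrays were closer to each other here than at any of the other 7 probe sets (SD 0.258, n = 3), at 25.8% to 26.0% of wild type. The hbbe2 probe set read 140, 117 and 123 in foggy, against 422 in wild type. Foggy array 1 was the highest of the mutants at 33.1% of wild type, with the other two at 27.7% and 29.1%.

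The 2 gas transport genes had values of the same order. The slc4a1a probe set read 37.7, 34.0 and 35.0 in foggy, against 159 in wild type, or 21.4% to 23.7% of wild type. The cahz probe set read 90.0, 127 and 104 in foggy, against 382 in wild type. Its foggy arrays were the most spread of the 8 probe sets, with a coefficient of variation of 17.6% against a median of 7.37% over all tested probe sets. Foggy array 2 had the highest cahz signal, 33.3% of wild type, and foggy array 1 the lowest, 23.6%.

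**Figure D1:**
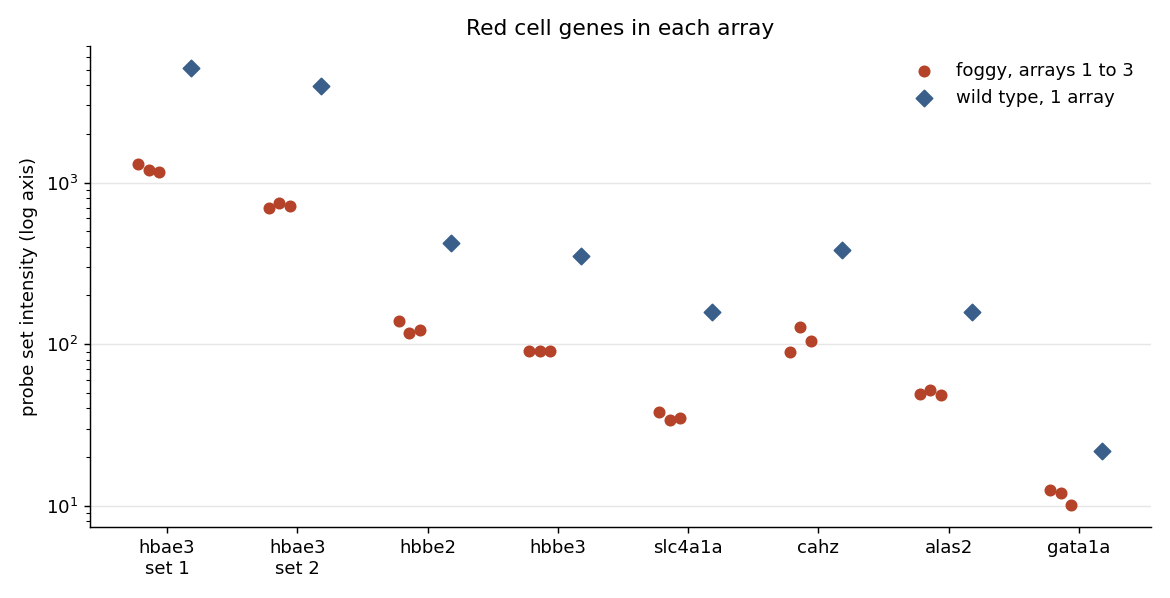
Probe set intensity (log axis) of the 7 red cell genes in the 3 foggy arrays (circles, left of each pair, arrays 1 to 3 from left to right) and the 1 wild-type array (diamonds). At each of the 8 probe sets all 3 foggy arrays lie below the wild-type array, from 1310 against 5131 for hbae3 down to 12.5 against 21.7 for gata1a, and probe sets of different genes cannot be compared in level.

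The haem enzyme alas2 was low as well. It read 48.8, 52.4 and 48.3 in foggy, against 158 in wild type. Its share of the wild-type signal, 30.6% to 33.2%, overlapped those of hbbe2 and cahz and lay above those of hbae3, hbbe3 and slc4a1a in every array. On the log2 scale, after 16.3 intensity units had been added to each value, alas2 differed by -1.40 ± 0.048 and the mean of the 5 terminal products by -1.78 ± 0.026 (SD over the 3 foggy arrays, each against the same wild-type array). The terminal products were thus lower than alas2 by 0.35, 0.43 and 0.38 on this scale in foggy arrays 1, 2 and 3, or -0.39 ± 0.041 (SD, n = 3). The gap was -0.30 with 1 unit added and -0.51 with 64 units added, so its size rests in part on that choice. The genes were chosen on this contrast, as on that with gata1a, so the gap is given as a description, with no test.

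The regulator gata1a was dim in all 4 arrays. It read 12.5, 12.1 and 10.1 in foggy, against 21.7 in wild type. The foggy values were 46.8% to 57.6% of wild type, above the range of every terminal product and of alas2. The probe set stood at the 14.5th percentile of all probe sets on average in foggy and at the 24.8th in wild type, under the 30th percentile below which probe sets were not tested. Its log2 difference of -0.45 ± 0.065 (SD, n = 3) lay 1.33 nearer to 0 than that of the terminal products. The gata1a difference was -0.86 with 1 unit added and -0.18 with 64 units added, so its size rests on that choice. A signal so near the bottom of the scale holds an unknown share of background, and with no detection calls in the table the part of that background in the smaller difference was not tested.

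**Figure D2:**
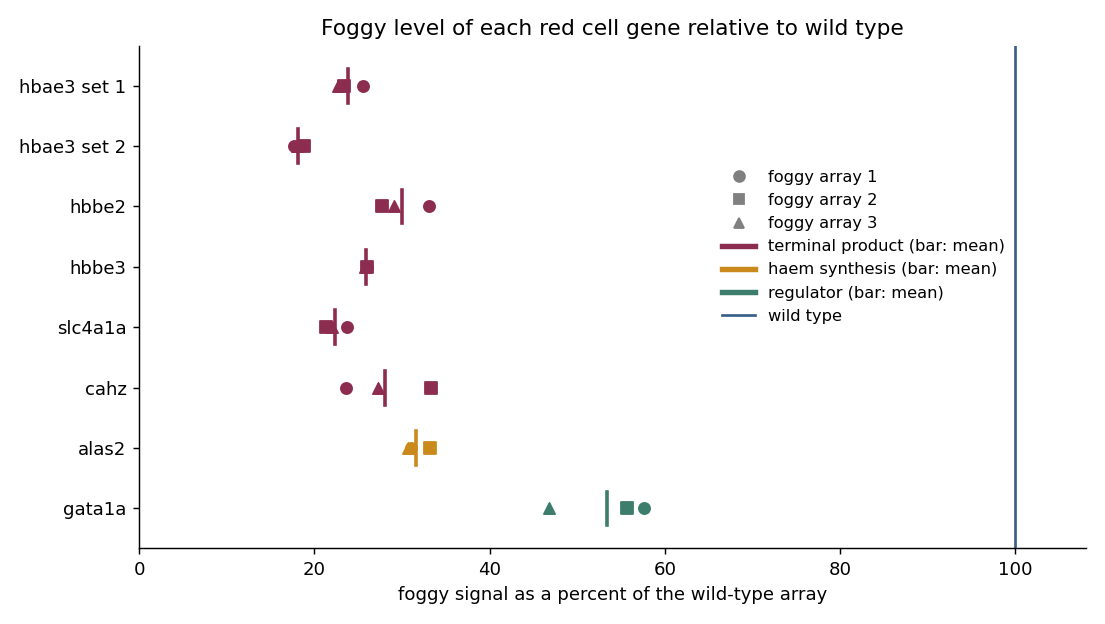
Signal of each foggy array as a percent of the wild-type array for the 8 probe sets, coloured by class, with a short bar at the mean of the 3 foggy arrays and a line at 100% for wild type. The terminal products lie between 17.7% and 33.3%, alas2 at 30.6% to 33.2% and gata1a at 46.8% to 57.6%.

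No foggy array was the lowest of the 3 at every probe set. Foggy array 1 had the highest mutant value at 5 of the 8 probe sets, foggy array 2 at 3 and foggy array 3 at 0, while the lowest value was in array 1 at 2, in array 2 at 2 and in array 3 at 4. Of the 7 probe sets that passed the filter on dim signals, all 3 foggy arrays lay below the wild-type array at 7, a pattern found at 28.4% of the 10851 tested probe sets. All 7 were at least 1 lower on the log2 scale in each foggy array, as were 62 probe sets in all (0.571%). The rule used this comparison to choose the genes, so nothing is read from these counts. Ranked by log2 difference from the lowest up, the 7 stood between place 3 (hbae3) and place 36 (alas2).

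Further globin probe sets, which were not among the chosen genes, carried the same direction. Each of 3 probe sets is annotated to several embryonic globin genes at once and is therefore given without a gene name. An alpha-globin set read 1978, 2052 and 1898 in foggy, against 5846 in wild type, a log2 difference of -1.56 (SE 0.0639, limma adjusted p = 8.32e-07). The second alpha-globin set read 75.8, 75.1 and 68.4 in foggy, against 209 in wild type (-1.34, SE 0.127, adjusted p = 2.65e-04). A beta-globin set read 3051, 3000 and 2959 in foggy, against 7087 in wild type (-1.23, SE 0.0582, adjusted p = 2.19e-06). All 3 sets passed, where 3.14% of all tested probe sets were called lower, and each passed under all 12 alternative settings. The setting that takes the middle probe set of each gene could not alter them, since each is a single probe set. They may read transcripts that also bind the hbae3, hbbe2 and hbbe3 probes, so they are not independent of those genes.

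The probe sets annotated to adult globins were near the bottom of the scale. The adult alpha-globin hbaa1 read 15.1, 8.57 and 20.8 in foggy, against 27.5 in wild type, and the adult beta-globin hbba2 read 2.18, 4.14 and 2.86 in foggy, against 1.91 in wild type. Neither was tested. Over the 9 globin probe sets together, the signal was 7361, 7288 and 7035 in foggy and 23025 in wild type, or 0.199%, 0.201% and 0.193% of the summed signal of the foggy arrays and 0.644% of that of the wild-type array. In RNA from whole tissue, fewer red cells, less blood left in the sample and less globin RNA per red cell cannot be told apart.

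**Figure D3:**
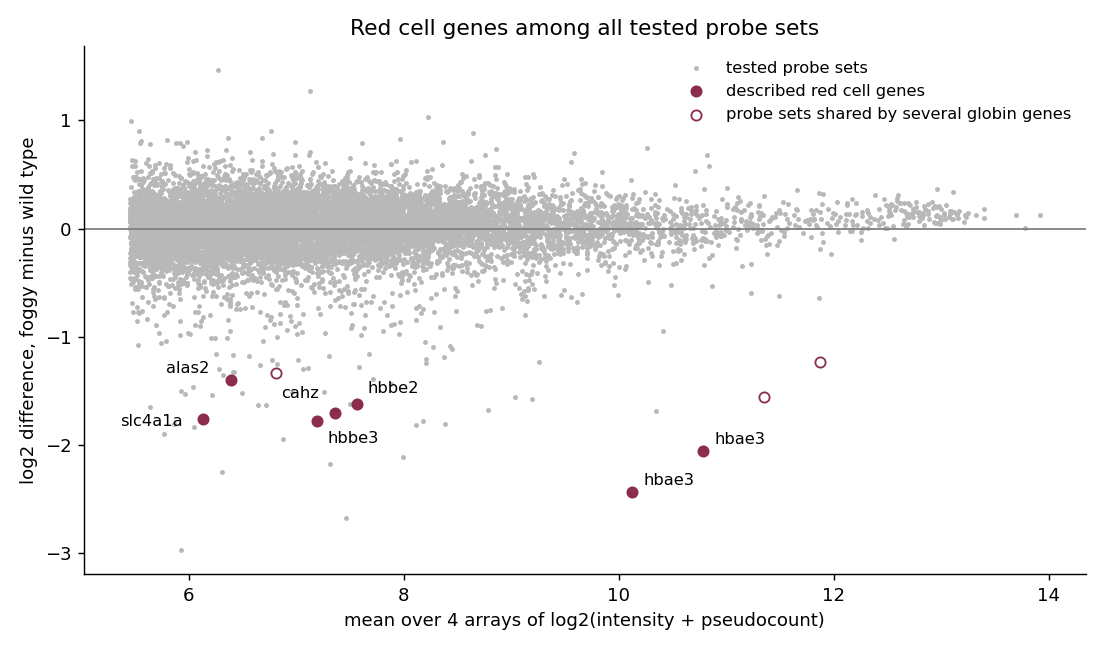
Log2 difference (foggy minus wild type) against mean log2 level over the 4 arrays for all 10851 tested probe sets (grey), with the 7 tested probe sets of the red cell genes (filled) and the 3 probe sets shared by several globin genes (open). The filled points lie between -2.44 and -1.40, and gata1a is not drawn because it was not tested.

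The other genes of the red cell pathway that were bright enough to test showed few differences that passed. They were taken from 7 lists written for the globins, haem synthesis, the cell membrane and skeleton, enzymes, iron, regulators, and haem breakdown and export. Of 120 genes outside the chosen 7, 59 had a named probe set, of which 40 were tested and 19 fell under the filter on dim signals. That filter used the mean over 4 arrays, 3 of them foggy, so a low foggy signal could itself put a gene under it. The 19 are described under other observations. Some of the 40, such as sod1 and hk1, are used by most cells, so the lists do not read red cells alone. Of these 40, 2 were lower (5%, against 3.14% of all tested probe sets), 1 was higher (against 2.36%) and 37 did not pass, with a median log2 difference of -0.06 beside 0.02 over all tested probe sets. At an unadjusted p under 0.05, 7 were lower and 3 higher. The share of all tested probe sets at that unadjusted threshold is not given, so nothing is read from unadjusted counts here or elsewhere. All 3 foggy arrays lay below the wild-type array at 20 of the 40 (50%), against 28.4% of all tested probe sets. Without foggy array 1 the counts were 6 lower and 4 higher of 40. Over all 10851 tested probe sets, 878 were then lower and 1186 higher. Without foggy array 2 the counts were 4 and 1 of 42 (348 and 218 over all). Without foggy array 3 they were 3 and 0 of 41 (377 and 232 over all). Passes gained without foggy array 1, here or below, were thus common over all probe sets. When the wild-type array was given 2 times the SD of the foggy arrays, 0 of the 40 passed limma's test, while 2 were lower and 1 was higher at an unadjusted p under 0.05.

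Haem synthesis beyond alas2 showed no call. Of 8 further tested genes, 0 passed limma's test and 1 was lower at an unadjusted p under 0.05. They ran from -0.43 to +0.21 with a median of -0.17. Where 3.14% of all tested probe sets were called lower, 0 calls among 8 genes cannot show that these genes were level. All 3 foggy arrays lay below the wild-type array at 6 of the 8 (75%), against 28.4% of all tested probe sets. The housekeeping form of the first enzyme, alas1, read 218, 204 and 252 in foggy, against 254 in wild type (-0.17, SE 0.115, adjusted p = 0.439). Foggy array 3 thus nearly met the wild type, unlike any foggy array for alas2. The mitochondrial protein gene tmem14ca, whose product carries a haem precursor, read 141, 177 and 164 in foggy, against 215 in wild type (-0.39, adjusted p = 0.105), and it passed without foggy array 1 (adjusted p = 0.0180) and without foggy array 2 (0.0489). The iron-sulphur cluster gene glrx5, which zebrafish red cells need for haem synthesis, read 237, 218 and 221 in foggy, against 250 in wild type (-0.14, adjusted p = 0.429).

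The membrane and skeleton list had 3 tested genes beside slc4a1a, of which 0 passed limma's test and 2 were lower at an unadjusted p under 0.05. Calls are too rare over all probe sets (3.14% lower) for 0 among 3 genes to show that they were level. All 3 foggy arrays lay below the wild-type array at 3 of the 3 (100%), against 28.4% of all tested probe sets. The water channel aqp1a.1 read 307, 267 and 309 in foggy, against 354 in wild type (-0.26, adjusted p = 0.167), and passed without foggy array 1 (adjusted p = 0.00870). The actin-binding dmtn differed by -0.07 (adjusted p = 0.721), and tmod4, which caps actin filaments and is also made in muscle, by -0.50 (adjusted p = 0.115). Of 11 red cell enzymes beside cahz, 1 was lower (9.09%, against 3.14% of all tested probe sets) and 10 did not pass. All 3 foggy arrays lay below the wild-type array at 8 of the 11 (72.7%), against 28.4% of all tested probe sets. Leaving out any 1 foggy array gave 2 lower, of 11 tested without array 1 and of 12 without array 2 or array 3. In those with 12, nt5c2l1 cleared the filter and was the second lower gene. The lower one with all arrays was a second carbonic anhydrase gene, ca2, with 220, 227 and 223 in foggy, against 413 in wild type (-0.84, SE 0.0834, adjusted p = 3.57e-04). The ca2 call was lost when the wild-type SD was doubled (adjusted p = 0.0527). The antioxidant enzyme prdx2, abundant in red cells, read 2765, 2726 and 2792 in foggy, against 3059 in wild type (-0.15, adjusted p = 0.180), and passed without foggy array 1 (0.00206). Those of sod1 and hk1, which most cells use, differed by -0.04 and +0.14 and did not pass.

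The 5 tested iron genes lay above 0, with a median of +0.15 beside 0.02 over all tested probe sets. Of these 5, 1 was higher (against 2.36% of all tested probe sets) and 4 did not pass, so the calls give no direction for the list. The gene that rose was slc40a1, which encodes the iron exporter ferroportin, with 221, 199 and 227 in foggy, against 155 in wild type (+0.44, SE 0.103, adjusted p = 0.0382). The slc40a1 call was lost without foggy array 3 (adjusted p = 0.0595), without the variance trend (adjusted p = 0.146), when dim probe sets were kept (0.0726) and when the wild-type SD was doubled (0.878). The ferritin genes fth1a and fthl27, which store iron, differed by +0.17 and +0.15 (adjusted p = 0.202 and 0.255), and both passed without foggy array 1 (0.00290 and 2.26e-05). The aconitase aco1, which also binds iron-responsive RNA elements, differed by +0.12 (adjusted p = 0.641). In haem breakdown and export only the haem transporter slc48a1b was tested, and it differed by +0.02 (adjusted p = 0.953).

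Of 20 regulators other than gata1a with a named probe set, 8 were too dim to test. Of these, klf1 lay at 19.1% to 43.9% of wild type in the foggy arrays and drl at 39.6% to 64.1%. Both were named after their values were seen, and signals this dim hold an unknown share of background. The foggy arrays of nfe2, ikzf1, kita, epoa, stat5a and runx1 lay on both sides of wild type. Among the 12 tested regulators other than gata1a, 1 was lower (8.33%, against 3.14% of all tested probe sets) and 11 did not pass, with a median of -0.03. All 3 foggy arrays lay below the wild-type array at 3 of the 12 (25%), against 28.4% of all tested probe sets. Without foggy array 1, 2 were lower and 1 was higher, the blood and vessel factor tal1 (+0.47, adjusted p = 0.00973, named after its value was seen). The one called with all arrays was klf3, a Krüppel-like repressor that binds the same CACCC elements as the red cell activator Klf1 in mouse. It read 66.0, 54.3 and 63.9 in foggy, against 109 in wild type (-0.69, SE 0.150, adjusted p = 0.0259), and its call was lost without the variance trend (0.0712), when dim probe sets were kept (0.0624) and when the wild-type SD was doubled (0.757). The cofactor ldb1a, which bridges Gata1 and Tal1 complexes in mouse, read 1021, 1118 and 1068 in foggy, against 1106 in wild type (-0.05, adjusted p = 0.753). The early blood factor gata2a differed by -0.06 (adjusted p = 0.816) and the stress-responsive factor foxo3b by -0.25 (adjusted p = 0.188, or 1.85e-04 without foggy array 1).

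**Figure D4:**
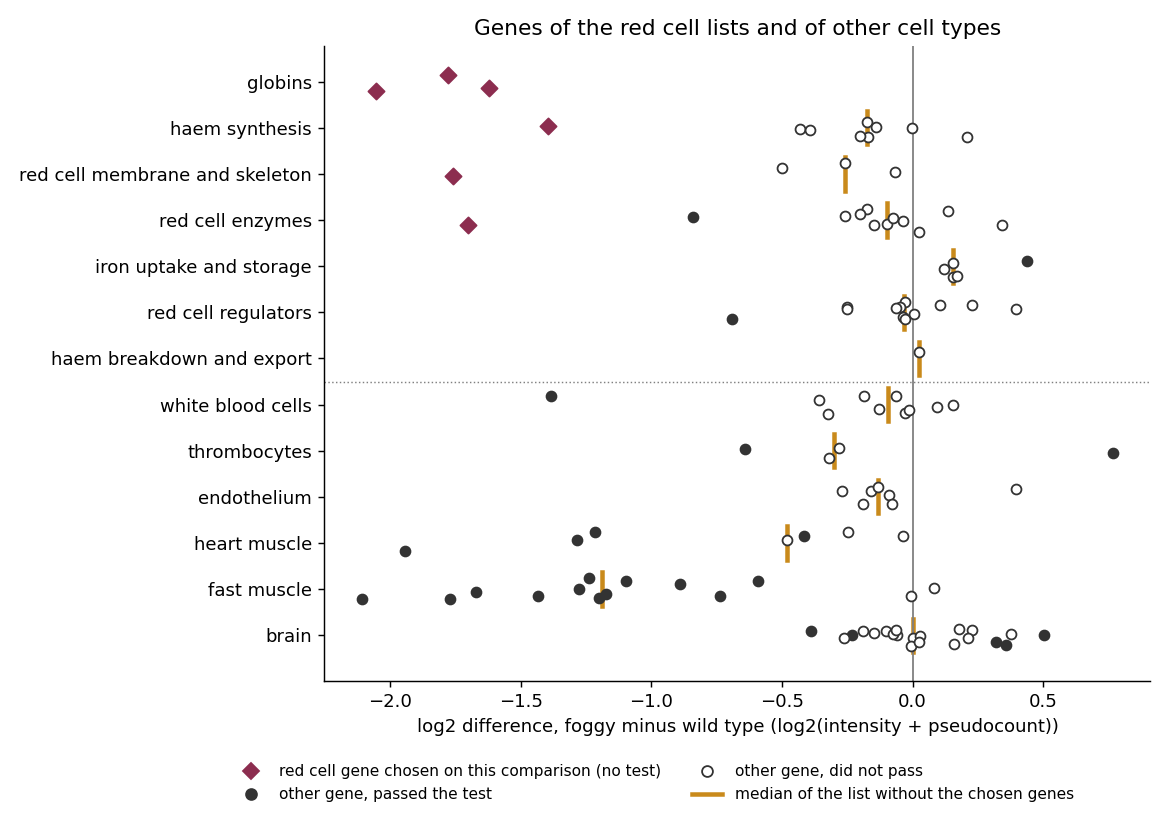
Log2 difference (foggy minus wild type) of each tested gene in the 7 red cell lists (above the dotted line) and in lists of other cells, by its brightest probe set. Dark red diamonds are the red cell genes chosen on this comparison (no test, gata1a not drawn), circles are the other genes, filled where past limma's adjusted p of 0.05, and bars are list medians without the diamonds, which lie between -2.06 and -1.40; the calls in the red cell lists are ca2 at -0.84, klf3 at -0.69 and slc40a1 at +0.44.

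Markers of other cells of blood, vessel and muscle were read in the same arrays, and their part in the red cell values was not tested. Of 10 tested white blood cell genes 1 was lower (10%, against 3.14% of all tested probe sets) and 9 did not pass. The summed signal of the 17 measured markers was 769 to 805 in foggy and 1151 in wild type. The lysozyme gene lyz read 146, 149 and 151 in foggy, against 414 in wild type (-1.38, SE 0.0929, adjusted p = 2.40e-05). The collagenase gene mmp13a, named after its values were seen, read 14.4, 19.0 and 19.2 in foggy, against 64.2 in wild type. With all arrays it fell under the filter on mean signal, at the 49.3rd percentile in wild type and the 21.0th on average in foggy. Without lyz and mmp13a, left out after seeing the data, the summed signal of the other 15 markers was 609 to 635 in foggy and 672 in wild type. Leaving out any 1 foggy array, or keeping dim probe sets, gave 2 lower white cell genes, lyz and mmp13a (adjusted p = 0.0154 for mmp13a with dim sets kept). Of 4 tested genes of the thrombocyte list thbs1b was lower (-0.64) and f13a1b higher (+0.77, adjusted p = 0.0224). The defining marker itga2b was dim, at 1.34 to 7.44 in foggy and 6.68 in wild type, and was not tested. The counts of this list are therefore not read as a level of thrombocytes. The calls of thbs1b and f13a1b were lost when dim probe sets were kept and when the wild-type SD was doubled. The thbs1b call was also lost by limma without the variance trend (adjusted p = 0.100). Without foggy array 1, 2 genes of the list were lower.

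Vessel genes gave no call in the same arrays. Of 7 tested endothelial genes 0 passed limma's test, and 0 were lower and 1 higher at an unadjusted p under 0.05. Since 3.14% of all tested probe sets were called lower, 0 calls among 7 genes cannot show that vessel genes were level. All 3 foggy arrays lay below the wild-type array at 4 of the 7 (57.1%), against 28.4% of all tested probe sets. Of 3 further genes too dim on average over the 4 arrays to test, tie1 lay at 38.3% to 57.7% of wild type and tek at 57.4% to 80.8%. The foggy arrays of erg lay on both sides of wild type. These 3 were named after their values were seen. The summed signal of the endothelial list, with the dim genes included, was 671 to 709 in foggy and 743 in wild type. The endothelial receptor kdrl read 76.0, 74.7 and 73.2 in foggy, against 87.3 in wild type (-0.19, adjusted p = 0.468). Without foggy array 1, 1 endothelial gene was called higher, tal1, which is also in the list of regulators.

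Muscle genes were low together with the globins. Of 14 tested fast muscle genes 12 were lower (85.7%, against 3.14% of all tested probe sets) and 2 did not pass. Their summed signal was 2418 to 2570 in foggy and 6354 in wild type. The lowest were the parvalbumin pvalb1 (log2 difference -2.11) and the myosin light chain mylpfa (-1.77). With the doubled wild-type SD, 7 of the 14 were lower, where 44 of all 10851 tested probe sets were. Of 7 tested heart muscle genes 4 were lower (57.1%) and 3 did not pass (1 lower with that doubled SD). The summed signal of the heart list was 1471 to 1568 in foggy and 2322 in wild type. The lowest were the heart myosin light chain myl7 (-1.94) and the myosin heavy chain myh7 (-1.28, lost with the doubled SD at adjusted p = 0.0564). Of the 62 probe sets at least 1 lower on the log2 scale in every foggy array, 7 belonged to the red cell genes described, 3 to the shared globin sets, 10 to the fast muscle list, 3 to the heart list, 1 to white blood cells and 0 to endothelium.

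Outside the 7 red cell genes, named genes were ordered by how like their differences were to the mean of the 5 terminal products over the 3 foggy arrays. Likeness was measured as the Euclidean distance over the 3 log2 differences, among 6846 named genes. The nearest were mylpfa, a fast muscle myosin light chain (distance 0.0989), the unnamed locus wu:fc46h12 (0.194), the transcription factor gene klf9 (0.210), the parvalbumin gene pvalb2 (0.249) and the cone transducin gene gngt2b (0.288). The mean holds the 5 terminal products themselves, so their own distances to it are short in part by construction. Among them hbbe3 lay at 0.0335, slc4a1a at 0.0839, hbbe2 at 0.321, cahz at 0.341 and hbae3 at 0.483. The second hbae3 probe set, which is not in the mean, lay at 1.13, alas2 at 0.672 and gata1a at 2.31. The measure uses the same wild-type array for every gene, and a short distance mainly says that 2 genes were low by a like amount.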

How the data were processed

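The authors deposited a table of intensity values, linear in scale, with 1 column per array. Its software, background correction and detection calls were not given in the sources used here. Values were already scaled (mean after trimming 2% at each end 150.03 in each array) and were used as deposited, so a difference is relative to the rest of the array. The 115 control probe sets were left out, a pseudocount of 16.252 (20th percentile) was added before log2, and 4651 probe sets under the 30th percentile of mean log2 were not tested, which left 10851. Fold changes on this scale understate those of dim genes. The filter averaged 4 arrays, 3 of them foggy, so genes low in foggy were left out more readily than genes low in wild type. Limma 3.58.1 in R 4.3.3 (lmFit, eBayes with a variance trend) compared foggy with wild type, two-sided, Benjamini-Hochberg adjusted over all 10851, with a threshold of 0.05. With 1 wild-type array the spread comes from the 3 foggy arrays (2 residual degrees of freedom), the wild-type array is assumed to vary alike, and the smallest p that exact permutation over the 4 arrays allows is 0.25. The number of arrays limits the precision. Each gene was represented by its brightest tested probe set.

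Symbols came from the platform annotation, updated by gene number with RefSeq's table of GRCz12tu (10711 of 10795 single-symbol probe sets matched), and 135 probe sets with several symbols are unnamed. The 7 genes and the lists were chosen with earlier results of these data known. Named genes were those 7, each list's calls (for other cells the largest 2 each way and the first marker), the 3 brightest uncalled red cell genes per list, all globin probe sets and the 5 nearest patterns. Genes named outside this rule are marked so. Alternatives changed the trend, filter, pseudocount, normalization, probe set choice, wild-type SD and arrays used. A planned search of promoters for motifs was not run, because no promoter sequences were used here.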

Additional observations from a re-analysis of the deposited data

How the results depend on the processing

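Each of the 8 red cell probe sets stayed below wild type under every pseudocount and normalization tried and without any 1 foggy array. All 3 foggy arrays lay below the wild-type array at each of them, and the genes were chosen on this comparison. No pseudocount or left-out foggy array could therefore change the sign, so nothing is read from it. Over all tested probe sets 341 were lower and 256 higher; the counts were 137 and 27 without the variance trend, 44 and 3 when the wild-type SD was doubled, and 129 were higher without a filter on dim probe sets. Leaving out 1 foggy array gave 348 to 878 lower and 218 to 1186 higher. Of the red cell genes outside the 7, 2 were lower and 1 higher; this was 1 and 0 without the variance trend, 1 and 0 with dim probe sets kept and 0 and 0 with the doubled wild-type SD, and leaving out 1 foggy array gave 3 to 6 lower and 0 to 4 higher. The terminal products minus alas2 gave -0.30 with a pseudocount of 1 and -0.51 with 64, and minus gata1a -1.09 and -1.29. Of the named genes only slc48a1b, which was not called, changed sign (-0.10 to 0.11 when 1 foggy array was left out). Of the other comparisons of named genes with an alternative, 437 kept their call or lack of one, 31 lost it and 8 gained one. The cause of the changes was not tested. The setting with another probe set per gene could change nothing for a gene with 1 probe set, so part of the 437 was fixed in advance. All fits rest on 1 wild-type array. No paired analysis was possible, because there is 1 wild-type array and the labels state no pairing.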

Other observations

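Several red cell genes fell under the filter on mean signal and were not tested. Of 19 red cell genes outside the 7 that fell under the filter, all 3 foggy arrays lay below the wild-type array at 9 (47.4%) and above it at 1, where 25.6% of all 4651 dim probe sets had all 3 foggy arrays below. The 4 with the lowest differences, named after their values were seen, were sptb, nt5c2l1, epb41b and hbaa1. The red cell spectrin gene sptb read 13.3, 6.35 and 3.10 in foggy, against 36.5 in wild type, and nt5c2l1 read 26.1, 13.6 and 11.9 in foggy, against 56.5 in wild type. In wild type sptb stood at the 35.5th percentile and nt5c2l1 at the 45.9th, but on average in foggy at the 9.79th and 20.2nd. With no filter on dim probe sets neither passed limma's test (adjusted p = 0.0578 and 0.0660). Without foggy array 2 or without foggy array 3, nt5c2l1 cleared the filter and was called lower (-1.08 and -1.03). The protein 4.1 gene epb41b read 13.4, 6.64 and 6.11 in foggy, against 19.9 in wild type (adjusted p = 0.261 with no filter).

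Genes that neighbour the 7 on the chromosome were read as well. In assembly GRCz12tu the 3 protein-coding genes on each side of each gene gave 31 neighbours that were no globin, of which 11 were tested. Of these, 1 was lower and 10 did not pass, where 3.14% of all tested probe sets were called lower. So few genes cannot show whether neighbours differ from other genes. The 11 ran from -0.95 to +0.20 on the log2 scale. The lower one, named after its value was seen, was the blue opsin gene opn1sw2 near gata1a, with 57.8, 49.3 and 56.7 in foggy, against 120 in wild type (adjusted p = 0.00511, lost at 0.337 when the wild-type SD was doubled).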
